A study of Mus musculus with 2 samples.

Results

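Classical monocytes of the P6 mouse lung were chosen by their transcripts from the cells of cluster 6 in the authors' annotation of whole lung suspensions. A cell was kept when its unique molecular identifiers (UMIs, counted transcript molecules) of Ly6c2 and Ccr2 together outnumbered those of Treml4, Adgre4, Ace and Spn, and ties were left out. The rule gave 776 classical monocytes of the 22963 cells that the authors kept, and of the 1488 cells of cluster 6. The control library held 627 of them among 13509 kept cells (4.64%), and the antibody library held 149 among 9454 (1.58%). The remaining cells of cluster 6 were 630 nonclassical monocytes, in which the Treml4 group was ahead, and 82 ties. Both the rule and the authors' clustering used expression in these same cells, so the levels of the genes involved are given as a description.

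All pups carried 1 genotype, Gli1CreERT2/+,R26RtdT/+, in which a tamoxifen-activated Cre recombinase made from the Gli1 locus switches on a red fluorescent reporter in Gli1-expressing cells, and all received tamoxifen at P1. At P3 they were given either 5E1, an antibody that binds Hedgehog ligands, or control IgG, and the lungs were taken at P6. Digestion was done on a pool of lungs from 3 pups for each condition, so each condition is 1 droplet library (10x Genomics 3' chemistry), there is no replicate, and no test between the conditions was possible. The labels do not give the strain, the sex or the litters.

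Classical monocytes leave the bone marrow through the chemokine receptor CCR2, circulate for a short time and enter tissues, where they can become macrophages or dendritic-like cells or convert to patrolling nonclassical monocytes. They are among the blood cells that respond most readily to interferons: type I interferon acts through IFNAR1 and IFNAR2 and a factor complex that binds DNA through IRF9, interferon gamma acts through IFNGR1 and IFNGR2, and the target genes include antiviral effectors, immunity-related GTPases and the machinery of MHC class I presentation. In the newborn lung they are one source of the macrophages that settle the tissue after birth.

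The depth was 2797262 UMIs over the 627 control monocytes and 806363 over the 149 of the 5E1 library, with a median of 4007 and 4795 UMIs and of 1486 and 1664 detected genes per cell. Among all kept cells, 184 barcodes occurred in both libraries, and none of these belonged to a classical monocyte. The libraries differed in the sex of the pooled pups as seen from transcripts: an Xist UMI was found in 77.7% of the control and 16.1% of the 5E1 monocytes, and a UMI of a Y-linked gene in 0 of 627, which allows a share of up to 0.478%, and in 56 of 149 (37.6%). Sex and treatment can therefore not be told apart across the whole libraries, and the main gene groups are also given for 5E1 cells split by these transcripts. Levels below are UMIs of a gene per 1000000 UMIs of the monocytes of a library (CPM), and each ratio has a 95% exact conditional binomial interval that covers counting error only, not the spread between animals. A gene is called higher or lower past a 1.5-fold difference.

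Ly6c2 and Ccr2 were counted by the rule, so their presence is no check of the label. Ly6c2, a surface protein of the Ly6C family, was found in 96.5% of control and 94.6% of 5E1 cells, at 3053 and 1961 CPM. Ccr2 was found in 70.8% and 85.9% of the cells, at 392 and 499.8 CPM. Plac8, a small cysteine-rich protein of myeloid and other cells, was found in 99.7% and 99.3%, at 10050 and 5145 CPM. Of the further markers, F13a1 and Vcan were present, whereas Chil3 was nearly absent, with 22 and 9 UMIs. The label thus rests on the rule's own genes and on few others, since Plac8 was at a similar level in nonclassical monocytes. In GRCm38 (GENCODE vM21), Ly6c2 lies at chr15:75108158-75111970 on the minus strand, Ccr2 at chr9:124101950-124113557 on the plus strand and Plac8 at chr5:100553725-100572245 on the minus strand. The rule drew its line through a continuum. Cells just inside it, ahead by 1 or 2 UMIs, numbered 74 and 24 and had 675 and 336 CPM of Ly6c2. Cells just outside, behind by 1 or 2 UMIs, numbered 153 and 77 and had 225 and 66.0 CPM. The 354 and 77 cells ahead by 10 or more had 4156 and 2725 CPM.

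As a description of the cells, the genes most enriched over all other kept cells, on the mean CPM of both libraries, were Ly6c2 (78.9-fold), the membrane protein gene Ms4a4c (55.4-fold), the interferon-inducible nuclear protein genes Mnda (41.0-fold) and Ifi204 (35.1-fold), Ccr2 (30.2-fold), Ms4a6c (27.8-fold) and Plac8 (22.5-fold). Against nonclassical monocytes, the largest excess was that of F13a1, the A subunit of coagulation factor XIII, with a mean of 165 CPM in classical and 1.27 CPM in nonclassical cells. Ly6c2 stood 22.2-fold, Ccr2 14.3-fold and the chemokine receptor gene Ccr1 9.36-fold above the nonclassical cells. Gngt2, a G protein gamma subunit gene, had a level in classical monocytes of 0.15 times that in nonclassical ones, and Pglyrp1, which encodes a peptidoglycan recognition protein, 0.18 times. Plac8 hardly separated the populations, at 0.93 times the nonclassical level.

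UMIs of genes that mark other cell types were also present. Of 17 such marker lists for other types than monocytes, the summed level was above 1000 CPM in both libraries for neutrophil genes (9300 CPM in the control and 12493 CPM in the 5E1 library, mostly S100a8 and S100a9, which monocytes also make), airway genes (2842 and 1586 CPM) and fibroblast genes (1912 and 1094 CPM). Scgb1a1, the club cell secretory protein gene, had a UMI in all 627 and all 149 monocytes. AT2 cell genes stood at 1801 and 415 CPM, with 60.4% of the control UMIs in 5 cells, and erythroid genes at 2410 and 212 CPM, with 89.6% of the control UMIs in 5 cells. The T cell list had 149 and 1 UMIs, and the NK list 39 and 0, with all 6 of its genes at 0 in the 5E1 library, which allows up to 3.72 CPM. Dendritic genes stood at 18.6 CPM in each library, interstitial macrophage genes at 149 and 83.1 CPM, and alveolar macrophage genes at 71.5 and 73.2 CPM. The part of these transcripts in the differences below was not tested beyond leaving out possible doublets.

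Between the libraries, classical monocytes differed mainly on the low side. Counting a gene as measured from 100 UMIs over both libraries, 3849 genes were measured, of which 92 were at least 1.5-fold higher in the 5E1 library (2.39%) and 309 were at least 1.5-fold lower (8.03%). The counting interval excluded equality for 85 of the 92 and for 275 of the 309. The median log2 ratio was 0.00, with 5th and 95th percentiles of -0.78 and 0.48. The gene groups with the lowest medians were interferon-induced GTPases, the type I interferon response and MHC class I presentation, and none of their measured genes was higher. These counts depended on the cells. Cells with 3 or more UMIs of B cell, T cell, NK, endothelial, fibroblast or AT2 markers are called possible doublets here. Leaving them out left 243 and 69 cells, 1488 measurable genes, 42 higher and 115 lower. The AT2 list alone reached 3 UMIs in 45.5% and 43.0% of the monocytes, and the fibroblast list in 34.0% and 21.5%. Reaching the limit thus does not show that a cell is a doublet.

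**Figure D1:**
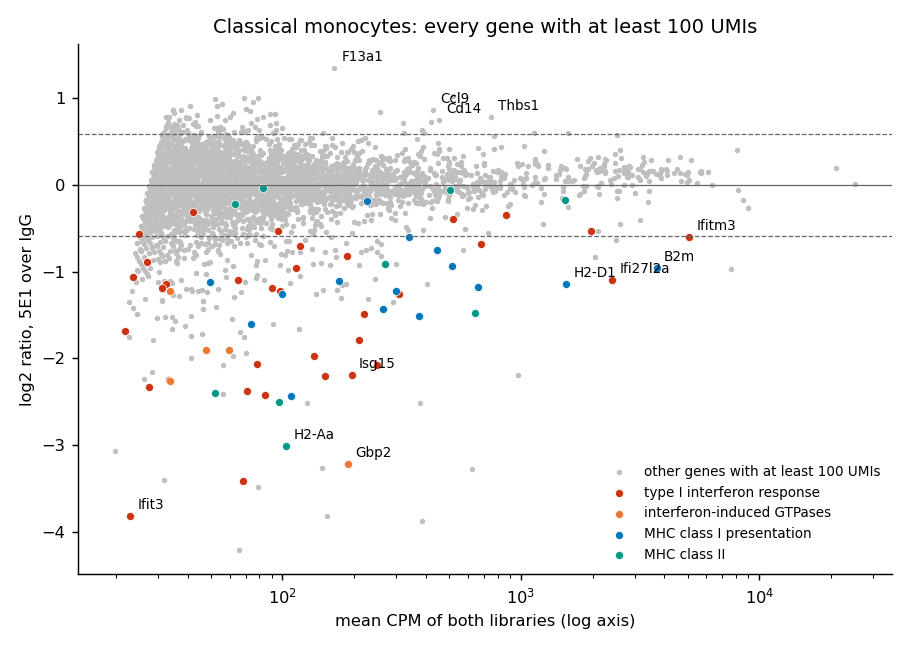
Log2 ratio of each of the 3849 genes (5E1 over IgG, vertical axis) against its mean level in classical monocytes (CPM, log axis), with dashed lines at 1.5-fold. The coloured genes of the type I interferon, GTPase and MHC class I and II lists lie below 0, while most genes lie close to it.

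The type I interferon response was lower as a group in the 5E1 library. Of the 49 genes in the list, 48 were in the files and 34 reached 100 UMIs. Of these 34, 29 were at least 1.5-fold lower and 0 were higher, against 8.03% lower among all genes. All 34 ratios were below 1, and their median log2 ratio was -1.19, against 0.00 over all genes. The summed level of the list was 18641 CPM in the control and 10408 CPM in the 5E1 monocytes, 1.79-fold lower (1.75 to 1.83).

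Among the regulators, Irf7, the transcription factor that amplifies interferon production, had 907 UMIs (324 CPM) in the control and 75 UMIs (93.0 CPM) in the 5E1 monocytes, 3.49-fold lower (2.75 to 4.47). It was detected in 64.3% and 30.2% of the cells. Irf9, the DNA-binding subunit of the complex that type I interferon activates, had 46.8 and 37.2 CPM and did not pass 1.5-fold. The receptor genes were not lower beyond counting error: Ifnar1 had 32.5 and 27.3 CPM, Ifnar2 112 and 102 CPM, and Ifngr2 112 and 114 CPM, each with an interval that includes 1. Ifngr1 had 395 and 516 CPM, a ratio of 1.30 (1.16 to 1.46). None of the 4 receptor genes was called.

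Among the effectors, Isg15, which encodes a ubiquitin-like protein that is attached to other proteins, had 897 UMIs (321 CPM) in the control and 56 UMIs (69.4 CPM) in the 5E1 monocytes, 4.62-fold lower (3.52 to 6.16). It was detected in 56.6% of the control and 18.1% of the 5E1 cells, and the 5 richest cells held 6.80% and 53.6% of its UMIs. Such shares of the 5 richest cells rise where a library has fewer cells or fewer UMIs, here and below, so they are a description. Zbp1, a sensor of Z-form nucleic acids, had 404 and 95.5 CPM (4.23-fold lower, 3.36 to 5.40), and Rtp4 had 247 and 53.3 CPM (4.64-fold lower, 3.41 to 6.47). Both were low in the 5E1 library by nearly the same factor as Isg15. Oasl2, of the oligoadenylate synthetase family, had 119 and 22.3 CPM, and Slfn1, of the Schlafen family, had 143 and 26.0 CPM. Ifit3, which binds foreign RNA with its partners, had 122 UMIs in the control and 2 in the 5E1 library, a ratio of 0.057 (0.0068 to 0.21). Members found in most cells were lower as well. Ifitm3, a membrane protein that blocks virus entry, had 6137 and 4032 CPM and was 1.52-fold lower (1.47 to 1.58), and Ifi27l2a had 3304 and 1540 CPM, 2.15-fold lower (2.02 to 2.28). Bst2, the tethering protein of budding viruses, had 324 and 115 CPM. Slfn2, Ly6e, Ms4a6c and Ifi35 had log2 ratios from -0.35 to -0.54 and, with Irf9, made up the 5 measured genes of the list that were not called.

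The interferon-induced GTPases, which attack the vacuoles of intracellular pathogens, stood lowest. Of 14 listed genes, 5 reached 100 UMIs, and all 5 were at least 1.5-fold lower, against 8.03% of all genes. Their median log2 ratio was -1.91. The list summed to 743 CPM in the control and 138 CPM in the 5E1 monocytes, 5.39-fold lower (4.46 to 6.59). Gbp2, a guanylate-binding protein gene (chr3:142620602-142638008, plus strand), had 949 UMIs (339 CPM) and 29 UMIs (36.0 CPM), 9.43-fold lower (6.53 to 14.2), and was detected in 58.2% and 11.4% of the cells. Gbp3 was 3.83-fold, Gbp7 3.84-fold, Igtp 5.03-fold and Irgm1 2.40-fold lower. Gbp4, short of the limit, had 95 UMIs in the control and 1 in the 5E1 library. Ifi47, a further GTPase gene of this kind that stands in the interferon list, had 125 and 11.2 CPM, 11.2-fold lower (5.85 to 24.8).

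**Figure D2:**
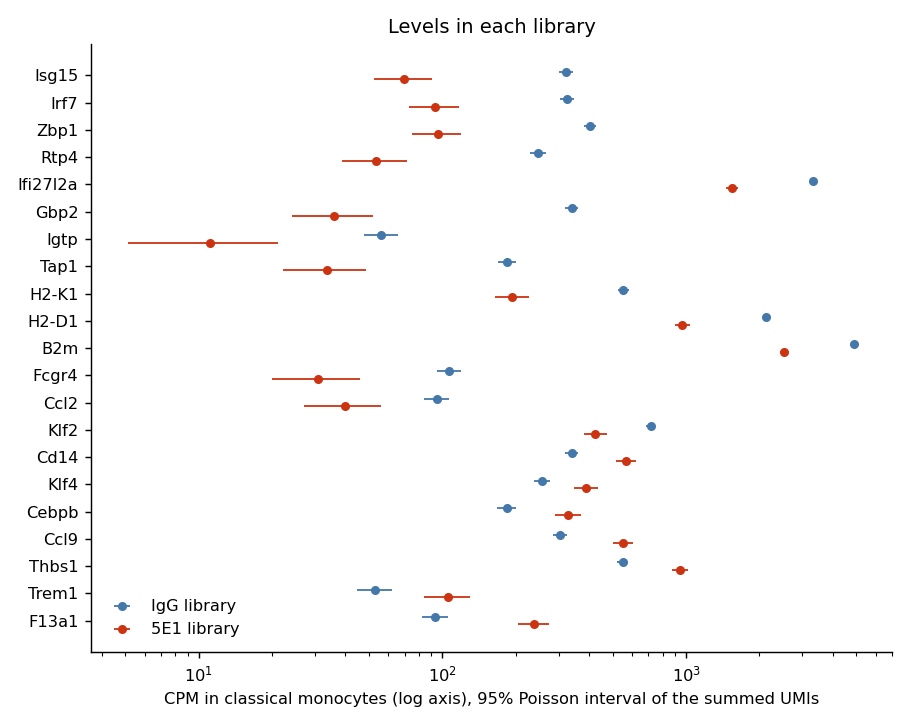
Level (CPM, log axis) of 21 genes in the classical monocytes of each library, 1 point per library with its 95% Poisson interval. The genes from Isg15 to Klf2 are lower in the 5E1 library, and those from Cd14 to F13a1 are higher.

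Promoters of some genes of the interferon, GTPase and MHC class I lists are shown. They were picked among the most lowered genes that held the sequence searched here, so their matches are no result. The factors above are known to bind a shared sequence, the interferon-stimulated response element. Its core was searched as GAAANNGAAA on both strands, counting overlapping matches, in RefSeq promoters of GRCm38.p6 that run from 250 bases before to 50 after the start. The 150 bases up to the start are printed 5′ to 3′ along the gene, with the match in capitals. TTTCNNTTTC is the same core read on the other strand. The windows are, in order, chr4:156200819-156200968, minus strand; chr5:120777660-120777809, minus strand; chr3:142620513-142620662, plus strand; chr11:58199406-58199555, plus strand; chr2:122147537-122147686, plus strand; and chr17:36032702-36032851, minus strand.
Isg15: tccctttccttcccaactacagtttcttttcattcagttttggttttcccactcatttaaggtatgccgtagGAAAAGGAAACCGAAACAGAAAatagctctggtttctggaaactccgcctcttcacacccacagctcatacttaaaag
Oas3: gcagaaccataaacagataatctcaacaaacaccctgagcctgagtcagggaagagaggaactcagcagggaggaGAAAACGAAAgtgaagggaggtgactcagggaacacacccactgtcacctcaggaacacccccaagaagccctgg
Gbp2: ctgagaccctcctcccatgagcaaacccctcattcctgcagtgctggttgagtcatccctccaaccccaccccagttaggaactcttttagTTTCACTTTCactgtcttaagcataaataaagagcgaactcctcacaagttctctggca
Igtp: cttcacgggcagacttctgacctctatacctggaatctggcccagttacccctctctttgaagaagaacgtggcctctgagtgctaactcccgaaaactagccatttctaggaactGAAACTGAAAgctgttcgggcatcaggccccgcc
B2m: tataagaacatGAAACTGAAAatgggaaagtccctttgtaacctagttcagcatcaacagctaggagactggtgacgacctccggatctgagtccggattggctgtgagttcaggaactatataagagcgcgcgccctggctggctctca
H2-T23: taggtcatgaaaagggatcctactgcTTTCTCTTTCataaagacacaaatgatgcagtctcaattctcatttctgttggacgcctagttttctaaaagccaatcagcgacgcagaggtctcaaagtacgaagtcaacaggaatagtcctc
Isg15 held 3 overlapping matches that began 78, 72 and 66 bases before the start, and Oas3, an oligoadenylate synthetase gene that was 5.35-fold lower, held 1 at 75 bases. The match of Gbp2 began 59 bases before the start and that of Igtp 34 bases. The core was present in 1131 of all 32851 promoters of the table (3.44%) and in 150 of the 3084 measured genes that matched the table (4.86%). It was present in all 5 measured GTPase genes and in 4 of 14 matched genes of MHC class I presentation. Of the type I interferon list, 27 of 34 genes matched the table, and 13 of them held the core. The unmatched genes were not searched, so this count does not stand for the whole list. The gamma-activated site core, TTCNNNGAA, was searched in the same way and was present in 8.30% of all promoters, in 2 of the 5 GTPase genes and in 1 of the 14 of MHC class I. A match is a description of letters and not evidence of binding.

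MHC class I presentation, by which cells display peptides from their own cytosol, was lower from the peptide cutters to the displayed chains. Of 20 listed genes, 15 were measured, 14 were at least 1.5-fold lower and 0 were higher, against 8.03% and 2.39% of all genes. The median log2 ratio was -1.15. The list summed to 12003 CPM in the control and 5860 CPM in the 5E1 monocytes, 2.05-fold lower (1.99 to 2.11). The heavy chain gene H2-K1 had 553 and 193 CPM (2.86-fold lower, 2.42 to 3.39), and H2-D1 had 2136 and 965 CPM (2.21-fold lower, 2.05 to 2.39). B2m, the light chain, had 4896 and 2525 CPM, 1.94-fold lower (1.85 to 2.03), and was found in 99.7% and 100% of the cells. Both the heavy chains and the light chain were thus lower. Of the peptide transporter genes, Tap1 had 184 and 33.5 CPM, 5.50-fold lower (3.73 to 8.43), and Tap2 was 2.20-fold lower. Tapbp, the tapasin gene that bridges transporter and heavy chain, was 2.17-fold lower. The immunoproteasome subunits, which replace constitutive subunits and cut peptides for class I, followed: Psmb8 had 921 and 407 CPM (2.26-fold lower), and Psmb9 and Psmb10 were 2.71-fold and 2.35-fold lower. Pdia3, an endoplasmic reticulum chaperone that serves many other proteins, had 241 and 211 CPM and was the 1 measured gene not called.

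UMIs of the MHC class II chain genes were concentrated in few cells. Of 14 listed genes, 9 were measured and 5 of them lay below the 1.5-fold line, against 8.03% of all genes. The median log2 ratio was -0.91. H2-Aa, an alpha chain gene, had 516 and 18 UMIs in 11.2% and 4.03% of the cells, and the 5 richest cells held 40.7% and 94.4% of these UMIs. Cd74, the invariant chain that guards the groove, had 944 and 337 CPM, and H2-DMa, whose product loads the peptide, 352 and 187 CPM. The lysosomal genes Ctss, Ifi30 and Lgmn had log2 ratios of -0.18, -0.06 and -0.04. Among the 598 and 147 cells with fewer than 5 UMIs of H2-Aa, H2-Ab1 and H2-Eb1 together, the median of the class II list was -0.32, with 7 of 9 genes still below 0, while that of the interferon list was -1.16 and that of class I -1.14. That limit uses 3 of the class II list's own genes, so its median there is a description. Cd74 had 300.2 and 165 CPM in these cells.

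The distribution over single cells shows how many monocytes carried the difference. Interferon-list UMIs per 10000 UMIs of a cell had a median of 192 in the control monocytes, with 5th and 95th percentiles of 82.6 and 315, and of 99.0 in the 5E1 monocytes, with percentiles of 55.8 and 189. Of the 149 5E1 monocytes, 7 lay above the control median (4.70%, exact binomial interval 1.91 to 9.44). Of the 627 control monocytes, 60 lay below the 5E1 median (9.57%, 7.38 to 12.1). The distributions overlapped, but most cells of each library lay on their own side. Cells of 1 library share their source and are not replicates.

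**Figure D3:**
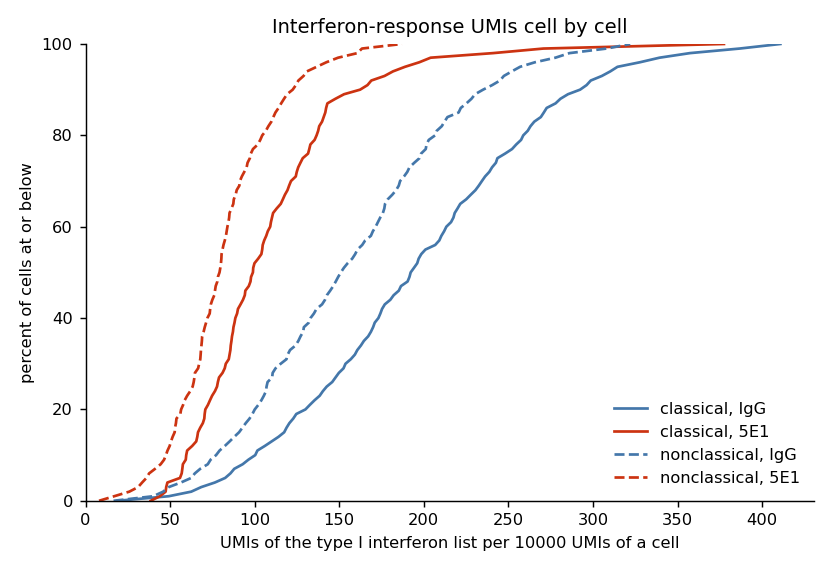
Share of cells (vertical axis, percent) at or below each value of interferon-list UMIs per 10000 UMIs (horizontal axis) for classical and nonclassical monocytes of both libraries. The medians are 192 (IgG) and 99.0 (5E1) in classical and 151 and 79.2 in nonclassical monocytes.

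With every cell thinned to 1000 UMIs, which left out 2 control cells and none of the 5E1 cells, a Gbp2 UMI was found in 27.2% of the control and 4.03% of the 5E1 monocytes. In cluster 4, which is rich in B cell markers and was measured in the same way as a background, the shares were 4.53% and 0.94%, with median depths of 2498.5 and 3325 UMIs before thinning. An Isg15 UMI was found in 24.96% and 8.05% of the monocytes (1.60% and 0.70% in cluster 4), and an Irf7 UMI in 29.1% and 7.38% (2.67% and 0.94%). Without thinning, the shares of monocytes were 58.2% and 11.4% for Gbp2, 56.6% and 18.1% for Isg15 and 64.3% and 30.2% for Irf7.

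The median of the interferon list was below 0 in each split of the cells that was made. The monocytes of each library were divided into 3 groups of equal size by their Ly6c2 and Ccr2 share, from lowest to highest. With 209 control cells and 49, 50 and 50 cells of the 5E1 library, this median was -0.99, -1.42 and -1.43. That split uses the rule's own genes and was cut within each library, so its groups are not matched and are a description. Ly6c2 had 948 and 555 CPM in the lowest group and 5747 and 3537 CPM in the highest. The 22 5E1 cells that had Xist but no Y-linked transcript were set against the 487 control cells with Xist. They gave a median of -1.88, with 34 of 34 genes below 0, and a summed level of 8269 against 18132 CPM. The 2 sets were not matched in other respects. The 22 cells had a median of 7026.5 against 4390 UMIs and 1935 against 699 CPM of G2 and M phase genes. Their S100a8 level was 17442 against 6927 CPM. The 54 5E1 cells that had a Y-linked transcript but not Xist had a summed level of 11522 CPM and a median of -1.11 against all control cells. Both groups of 5E1 cells were thus below the control. With 1 pool per condition, a difference between litters, pups or preparations and an effect of the antibody cannot be told apart.

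Nonclassical monocytes of the same cluster showed these gene groups at lower levels in the 5E1 library as well. There, 2518 genes were measured and 167 were at least 1.5-fold lower (6.63%). Of the interferon list, 17 of 20 measured genes were lower, with a median of -1.26, and of MHC class I presentation 12 of 15, with a median of -1.10. The summed interferon list was 1.89-fold lower in nonclassical monocytes, 1.70-fold in cluster 8, which is rich in interstitial macrophage markers, 1.59-fold in cluster 4, and 1.43-fold both in cluster 1, rich in neutrophil markers, and in cluster 7, rich in MHC class II transcripts. The 1.79-fold of classical monocytes lies inside this range. The summed class I list, at 2.05-fold lower, was further from 1 in classical monocytes than in the nonclassical cells (1.48-fold) and in clusters 1, 4, 7 and 8 (1.15-fold, 1.45-fold, 1.21-fold and 1.40-fold). Their counting intervals do not overlap that of classical monocytes. The medians over single class I genes were close, at -1.15 in classical and -1.10 in nonclassical monocytes. The GTPase list was ordered otherwise, at 5.39-fold lower in classical monocytes, 7.57-fold in nonclassical monocytes, 6.98-fold in cluster 1, and 2.82-fold and 2.58-fold in clusters 8 and 4. In cluster 7 it had 348 and 112 CPM. Whether these folds differ beyond the spread between animals could not be tested with 1 library each, and the same 2 pools of pups underlie all of them.

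**Figure D4:**
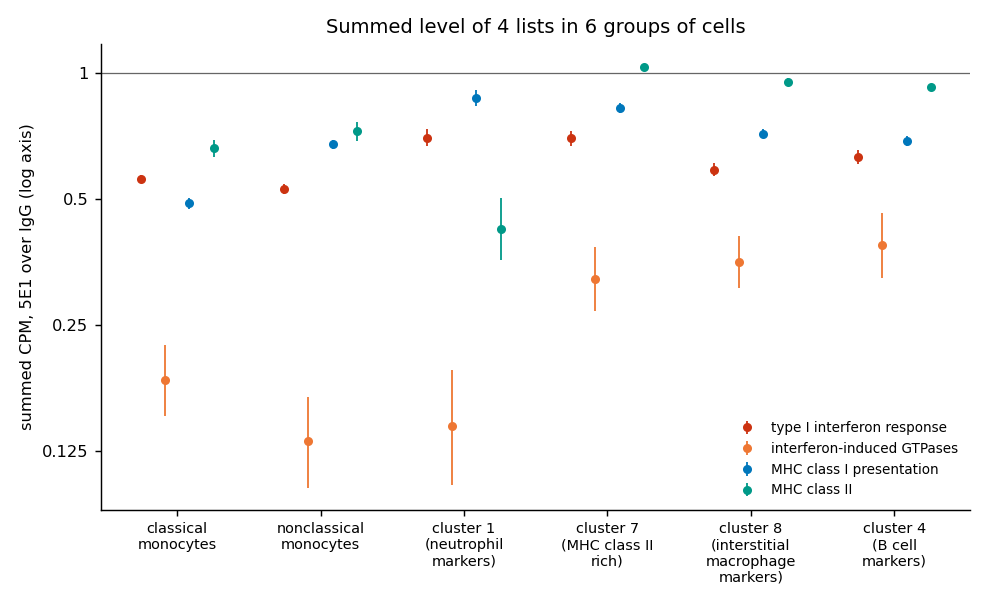
Ratio of the summed level of 4 gene lists (5E1 over IgG, log axis) in classical monocytes, nonclassical monocytes and clusters 1, 4, 7 and 8, with 95% counting intervals. The interferon, GTPase and class I lists lie below 1 in all 6 groups, and the class II list lies near 1 in clusters 4, 7 and 8.

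The genes on the higher side were led by F13a1 (chr13:36867178-37050244, minus strand). It had 261 UMIs (93.3 CPM) in the control and 191 UMIs (237 CPM) in the 5E1 monocytes, a ratio of 2.54 (2.10 to 3.07), and was found in 28.2% and 57.0% of the cells. After thinning, the shares were 7.68% and 18.8%. In nonclassical monocytes they were 0% (0 of 377 cells, which allows a share of up to 0.796%) and 0.41%. In cluster 4 no thinned cell of either library had a UMI, while 0.70% of its unthinned 5E1 cells did. Among the clusters, over both libraries, F13a1 was highest in cluster 8, rich in interstitial macrophage markers, at 264 CPM. F13a1 belongs to the list of matrix, protease and coagulation genes, of which 13 were measured, 4 were higher and 0 were lower, against 2.39% and 8.03% of all genes. The median log2 ratio was 0.29. Thbs1, the gene of the matrix protein thrombospondin-1, had 549 and 945 CPM, a ratio of 1.72 (1.58 to 1.88). Fn1, the fibronectin gene, had 312 and 472 CPM (1.51, 1.34 to 1.71), and Mmp8, a collagenase gene, had 71.1 and 117 CPM (1.64, 1.27 to 2.10). These genes and the interferon genes were compared as sums over each library. Whether they were related cell by cell was not tested. Thbd, the thrombomodulin gene, had 46.1 and 91.8 CPM, a ratio of 1.99 (1.48 to 2.67).

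Of 18 measured pattern recognition genes, 3 were higher and 1 was lower, against 2.39% and 8.03% of all genes. Trem1, an activating receptor that boosts inflammatory signals, had 52.9 and 105 CPM, a ratio of 1.99 (1.51 to 2.62), and Cd14, the co-receptor that hands lipopolysaccharide to TLR4, had 339 and 567 CPM (1.67, 1.49 to 1.87). Clec4d, a C-type lectin receptor gene, had 42.9 and 71.9 CPM, but its log2 ratio was -0.15 when the 5E1 library was limited to its 22 cells that had Xist but no Y-linked transcript. The median of the list was -0.12, so most of these genes were not higher. Trem3, a related receptor gene, was the lower one, with a log2 ratio of -0.61.

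Transcription factor genes of monocytes went both ways. Spi1, which encodes the master regulator PU.1, had 767 and 758 CPM, and Zeb2, a repressor needed in myeloid cells, had 373 and 367 CPM. Irf8, a factor of monocyte and dendritic cell descent, had 186 and 148 CPM, which was not past 1.5-fold. Of 27 measured genes, 2 were higher and 5 were lower, against 2.39% and 8.03% of all genes, with a median of -0.11. The 2 higher ones were Cebpb, a factor that supports survival of monocytes and emergency production of myeloid cells, at 183 and 327 CPM (1.79, 1.53 to 2.07), and Klf4, needed for monocyte formation, at 257 and 388 CPM (1.51, 1.32 to 1.73). With only the 22 5E1 cells that had Xist but no Y-linked transcript, the log2 ratios of Cebpb and Klf4 were -0.064 and -0.55. Of the lower ones, Klf2, a factor of quiescence, had 715 and 424 CPM, Klf6 316 and 185 CPM, and Id3, an inhibitor of E proteins, 255 and 115 CPM.

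Genes of monocyte identity went both ways. Of 16 measured classical monocyte genes, 3 were higher (F13a1, Thbs1 and Fn1) and 5 were lower, against 2.39% and 8.03% of all genes. The median was 0.25. Of the lower ones, Ms4a4c and Ifi27l2a are also on the interferon list, and Ly6c2 belongs to the rule itself. Without the rule's genes, 14 were measured, of which 3 were higher and 4 were lower. Of 13 measured genes typical of nonclassical monocytes, 7 were lower and 0 were higher, but Treml4 and Adgre4 among them belong to the rule. Without the rule's genes, 5 of 11 were lower and 0 were higher, with a median of -0.35. In the nonclassical monocytes, again without the rule's genes, 15 of this list were measured, 2 were higher and none was lower, with a median of 0.14. Over all 2518 genes measured in those cells, 66 were higher and 167 were lower. Csf1r, the receptor that monocytes need to mature, had 281 and 313 CPM. Nr4a1, the factor required for nonclassical monocytes, had 464 and 423 CPM, and Cx3cr1, the fractalkine receptor gene, 34.0 and 33.5 CPM; none of these 3 was called.

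**Figure D5:**
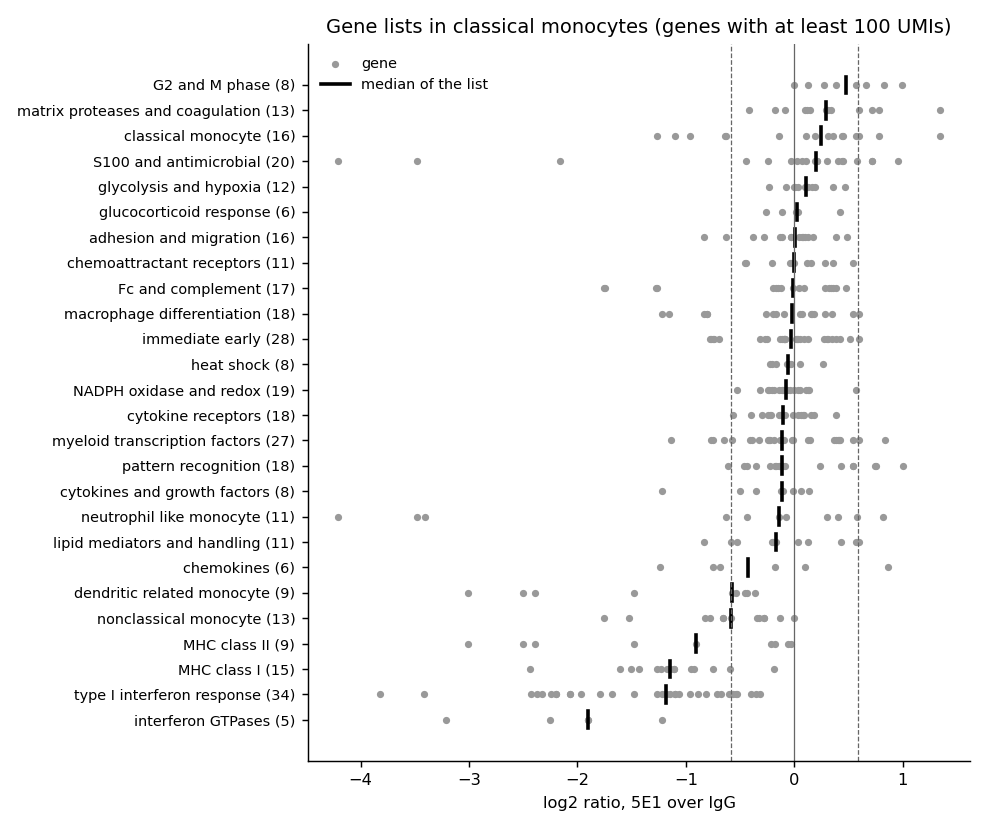
Log2 ratio (5E1 over IgG) of each measured gene of the gene lists in classical monocytes, with the median of each list as a bar, the number of genes in brackets and dashed lines at 1.5-fold. The GTPase, interferon and class I lists have the lowest medians, and the redox, adhesion and receptor lists lie around 0.

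The genes for chemokines were split. Of 6 measured, 1 was higher and 3 were lower, against 2.39% and 8.03% of all genes. Ccl9, a CCR1 ligand made by myeloid cells, had 304 and 552 CPM, a ratio of 1.82 (1.62 to 2.04). Ccl2, the CCR2 ligand that recruits monocytes, had 94.7 and 39.7 CPM and was 2.39-fold lower (1.65 to 3.56). Ccl3 and Ccl4, which attract leukocytes, had 282 and 167 CPM and 320 and 198 CPM, 1.68-fold and 1.61-fold lower. A few cells held much of both: the 5 richest held 28.1% and 43.0% of the Ccl3 UMIs and 34.4% and 55.6% of the Ccl4 UMIs. Of 8 measured cytokine genes, Il18 alone was called, at 59.0 and 24.8 CPM (2.38-fold lower), and Il1b had 334 and 331 CPM.

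Among Fc receptor and complement genes, 17 were measured, 4 were lower and 0 were higher, against 8.03% and 2.39% of all genes. Fcgr1, the high-affinity IgG receptor gene, had 195 and 80.6 CPM, 2.42-fold lower (1.87 to 3.18), and Fcgr4 had 107 and 31.0 CPM, 3.44-fold lower (2.28 to 5.40). Fcgr3, the low-affinity activating receptor gene, had 505 and 520 CPM. The Fc receptor genes thus did not all differ in 1 direction. Cfb, factor B of the alternative complement pathway, had 64.3 and 18.6 CPM, 3.46-fold lower (2.04 to 6.31), whereas C3 had 97.6 and 135 CPM and was not called.

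S100 and antimicrobial genes, which neutrophils also express, numbered 20 measured, with a median of 0.20. Of these, 3 were higher and 3 were lower, against 2.39% and 8.03% of all genes. S100a8 had 6930 and 9178 CPM (1.32, 1.29 to 1.36), and S100a9 had 2026 and 3012 CPM (1.49, 1.42 to 1.56). Both were short of 1.5-fold, and 34.3% and 51.5% of the S100a9 UMIs lay in 5 cells. Few cells held most UMIs of the 3 lower genes: Camp, an antimicrobial peptide gene of neutrophil precursors, had 352 and 5 UMIs with 94.3% of the control UMIs in 5 cells, and Ngp had 405 and 10 with 94.6%. The third, Lyz1, had 131 and 8 UMIs with 52.7%. Slpi, a protease inhibitor gene, had 242 and 397 CPM (1.64, 1.43 to 1.87), and Prtn3, the proteinase 3 gene of early granules, had 67.6 and 119 CPM (1.76, 1.36 to 2.26). Cells with 3 or more UMIs of Stfa1, Stfa2l1 and Prtn3 made up 97 of the 627 control and 40 of the 149 5E1 monocytes (15.5% and 26.8%, without thinning, in cells of unequal depth). In thinned cells a Stfa1 UMI was found in 14.2% (11.6 to 17.2) and 17.4% (11.7 to 24.5), intervals that overlap. Among the remaining 530 and 109 cells the median of the interferon list was -1.07. There S100a8 had 2984 and 2015 CPM and S100a9 381 and 147 CPM, so both were lower in the 5E1 library. Slpi had 191 and 254 CPM in them. Cells that reached the limit had 26575 and 25738 CPM of S100a8, 10214 and 9635 CPM of S100a9, and 500 and 727 CPM of Slpi.

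Genes of division differed through few cells. Of 8 measured genes of the G2 and M phases, 3 were higher and 0 were lower, against 2.39% and 8.03% of all genes. The median was 0.47. Birc5, the survivin gene, had 98 and 56 UMIs, and 80.4% of the 5E1 UMIs lay in 5 cells. Its log2 ratio of 0.99 became -0.92 when possible doublets were left out, and that of Ube2c went from 0.82 to -0.33. Only 17 and 3 UMIs of Birc5 and 31 and 9 of Ube2c were then left. That limit left out most cells of each library, and whether the UMIs of these genes came from doublets was not tested. In thinned cells, 71 of 625 control monocytes (11.4%, 8.98 to 14.1) and 12 of 149 of the 5E1 library (8.05%, 4.23 to 13.6) had 2 or more UMIs of the list. Unthinned, the shares were 42.3% and 47.7%. The intervals overlap, so a difference in the share of dividing cells was not detectable at this depth.

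In several groups no gene or few genes were past 1.5-fold. None of 11 measured chemoattractant receptor genes, 19 redox and NADPH oxidase genes, 8 heat shock genes, 12 glycolysis genes, 6 glucocorticoid response genes or 2 S phase genes was past 1.5-fold in either direction. With 2.39% of all genes higher and 8.03% lower, counts of 0 in lists this short do not set these groups apart. Of 18 cytokine receptor genes, 1 was lower, and of 16 adhesion genes, 2 were lower, among them the integrin gene Itgb7. Other groups had more lower genes. Of 28 immediate early genes, which respond to tissue digestion, 1 was higher and 5 were lower, with a median of -0.03. Of 18 macrophage differentiation genes, 1 was higher and 5 were lower. The higher one was Apoe, the lipid carrier gene, at 1260 and 1899 CPM (1.51, 1.42 to 1.60). C1qb, a complement C1q chain gene, was among the lower ones at 181 and 22 UMIs. Its log2 ratio of -1.22 became 0.68 without possible doublets, on 35 and 21 UMIs.

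The Hedgehog pathway itself, the target of the antibody, was hardly detected in these cells. None of its 15 listed genes reached 100 UMIs, and together they had 175 UMIs (62.6 CPM) in the control and 23 (28.5 CPM) in the 5E1 monocytes. Ptch1, the Hedgehog receptor and a target gene, had 40 and 2 UMIs, Hhip, a decoy receptor and target gene, 47 and 4, and Gli1, the transcription factor that reports pathway activity, 3 and 0. Smo, the signal transducer, had 16 and 3. In CPM, Ptch1 had 14.3 and 2.48 in the monocytes, against 11.7 and 8.15 in cluster 4. Hhip had 16.8 and 4.96 CPM, against 16.0 and 0.96 CPM in cluster 4, so its lower level was not particular to these monocytes. Where these few UMIs came from was not tested. The reporter sequence named tdTomWPREbGHpolyA had 365 and 90 UMIs (130 and 112 CPM), against 113 and 68.5 CPM in cluster 4.

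Genes were also ranked by ratio among those of at least 50 CPM in 1 library, leaving out hemoglobin, mitochondrial, ribosomal, immunoglobulin, predicted and sex-linked marker genes, and genes whose level in both libraries was under 5% of that in the cluster richest in them. Lower genes such as Camp, Ngp and H2-Aa, whose values stand above, were thus not ranked. The 15 highest also held Hnrnpll, a splicing regulator gene, Gpx3, which encodes a secreted glutathione peroxidase, the amino acid transporter gene Slc38a1, and Baz2b, Nme2, Dusp3 and Atf6b, with ratios of 1.73 to 1.90. The 15 lowest held, beside Ifi47, Gbp2, Tap1, Slfn1, Oasl2, Igtp, Rtp4, Isg15 and Zbp1, the genes Ly6i (216 and 37.2 CPM), Ifi205, Phf11b, AW112010, Saa3 and Lair1. Lair1, an inhibitory collagen receptor gene, had 186 and 13 UMIs, 4.12-fold lower (2.35 to 7.89). Saa3, an acute phase protein gene, had 165 and 4 UMIs, with 65.5% of the control UMIs in 5 cells.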

How the data were processed

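Droplet libraries of whole P6 lungs were deposited as raw UMI counts per gene and cell barcode (29004 features, 15021 and 10519 barcodes), which the authors obtained, per the submitters' processing notes, from Cell Ranger 3.1.1 and the mm10 build. The kept cells and their 23 cluster numbers come from the authors' deposited annotation, whose header is shifted against its values; the columns were told apart by their values. Results on some genes are not reported here. How doublets were treated there is not given in the sources used here, and no doublet caller was run. From the counts, UMIs were summed over the classical monocytes of each library and scaled to their total (CPM). Ratios had 0.5 UMI added to each sum on the log2 scale only. Intervals are exact Poisson (levels), exact conditional binomial (ratios) and Clopper-Pearson (shares). Reads were collapsed to UMIs before deposit, so intervals treat UMIs as independent molecules. The script was tested on simulated data. Genes were named from 28 gene lists and 19 marker lists where they had at least 20 UMIs, and as the 15 highest and 15 lowest ratios and the 20 most enriched genes, leaving out mitochondrial, ribosomal, hemoglobin, immunoglobulin, predicted and sex-linked marker genes and those under 5% of their level in the richest cluster; flagged genes are named besides. Members and lists were chosen with earlier results of these data known. Of 583 list symbols, 580 were in the files. Python 3.11.15, numpy 2.4.6, pandas 2.3.3, scipy 1.17.1 and matplotlib 3.10.9 were used.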

Additional observations from a re-analysis of the deposited data

Results flagged for a closer look

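For 12 genes the ratio between the libraries was past 1.5-fold in opposite directions in classical and in nonclassical monocytes. The difference between the cell types was not tested. The hemoglobin genes Hba-a1, Hba-a2, Hbb-bs and Hbb-bt had log2 ratios of -3.88, -3.81, -3.27 and -3.26 in classical and of 1.81, 1.48, 1.13 and 1.11 in nonclassical monocytes, and the 5 richest control cells held 86.6% to 91.9% of their UMIs in classical monocytes. Retnlg, a neutrophil gene, had -1.13 and 1.37, with 95.2% of the control UMIs in 5 cells. The stefin genes Stfa1 and Stfa2l1, expressed in maturing neutrophils, had 1.02 and 0.76 in classical and -1.11 and -0.996 in nonclassical cells, and Wfdc21 had 0.95 and -1.01. Eln, the elastin gene, had -1.14 and 0.89, and Sftpb, a surfactant protein gene, -1.41 and 0.84. Hfe, a regulator of iron uptake, had -0.89 and 0.79, and Rpl6l had 0.63 and -0.59. The 5 richest classical monocytes held 35.3% of the control and 47.3% of the 5E1 UMIs of Stfa1. For Stfa2l1 these shares were 55.6% and 55.7%, for Wfdc21 46.5% and 65.0%, for Eln 34.3% and 56.4%, and for Sftpb 44.4% and 30.4%. Hfe had 10.7% and 41.2% (112 and 17 UMIs), and Rpl6l 8% and 19.2%.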

How the results depend on the processing

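No paired analysis was possible because each condition is 1 library. Each value has counting error only, from 1 pool of pups per condition, and the split by Y-linked transcripts and the removal of the 3% of cells richest in a gene were chosen after seeing the data. The median log2 ratio of the interferon list stayed between -1.70 and -1.01 and that of MHC class I between -1.37 and -0.95 over all 10 alternatives. The cause of the shifts that follow was not tested, apart from fewer measurable genes where cells, UMIs or genes are left out.

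The 92 higher and 309 lower genes became 291 and 582 with only the 22 5E1 cells that had Xist and no Y-linked UMI, 152 and 477 with only the 54 that had Y-linked and no Xist UMI, 42 and 115 without possible doublets, 32 and 99 in thinned cells, 588 and 1372 at a minimum of 20 UMIs, and 14 and 86 at 400. The lower count was 190 in cells with 0 UMIs of Treml4, Adgre4, Ace and Spn, and 195 without cells with 2 or more G2 and M phase UMIs. The GTPase median became -3.10 in the Xist cells and -3.21 at 400 UMIs (1 gene). The MHC class II median became -0.61 in the Y-linked cells, -0.56 in thinned cells and -1.19 at 400 UMIs. A margin of 3 UMIs left 553 and 125 monocytes, and counting ties gave 688 in the control. Unthinned shares were 28.2% and 57.0% for F13a1, 58.2% and 11.4% for Gbp2, and 56.6% and 18.1% for Isg15.

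Some log2 ratios changed sign. In the Xist cells Cebpb had -0.064, Klf4 -0.55, Clec4d -0.15, C1qb 0.76 and Cd81 0.21. In the Y-linked cells the G2 and M phase median was -0.57, with Birc5 at -1.45, Ube2c at -1.16 and Smc4 at -0.29. Without possible doublets few UMIs were left: Birc5 had -0.92 (17 in the control and 3 in the 5E1 library) and Ube2c -0.33 (31 and 9). Fli1 had 0.29 (33 and 15), C1qb 0.68 (35 and 21) and Cd63 0.52 (17 and 9). In cells with 0 UMIs of the nonclassical genes Hes1 had 0.72 (28 and 14 UMIs) and Egr1 0.11 (76 and 25), and in thinned cells Atf6b had -1.16 (23 and 2). Of 216 medians of the other lists, 194 stayed between the median lower and the median upper interval bound of their genes. That range is typical of a single gene and is not the error of a list median. Of 1060 ratios of named genes, 801 stayed inside the gene's own counting interval.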
